A study of Mus musculus with 4 samples.

Results

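The annexins are a family of proteins that bind acidic phospholipids of membranes when calcium rises. Each has a conserved core of annexin repeats, which carries the calcium sites, and a variable N-terminal part, which sets the binding partners. In muscle they are known for their part in resealing the torn plasma membrane, together with dysferlin, EHD proteins and the ESCRT machinery.

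The members described here were the 8 annexin genes with a clone on the array, Anxa1, Anxa2, Anxa3, Anxa4, Anxa5, Anxa6, Anxa7 and Anxa11, out of 6726 genes that could be named. They were found by gene symbol or gene ID in the deposited table and had 12 clones among 16834 clones in all: 4 for Anxa7, 2 for Anxa6 and 1 for each of the others. The family was chosen by the difference of Anxa3, whose z-scores lay higher with HuR siRNA, so its comparison between the siRNAs is given as a description, without a test. No clone was named Anxa8, Anxa9, Anxa10 or Anxa13.

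The cells were C2C12, an established line of mouse myoblasts, kept proliferating in serum-rich medium. They were transfected with siRNA against HuR, the RNA-binding protein encoded by Elavl1, or with a control siRNA, and each group had 2 arrays of spotted cDNA clones hybridised with 33P-labelled cDNA. Values are z-scores, with 1 unit equal to 1 SD of the spots in a section, and they allow no fold changes. The labels do not tell separate cultures from repeat arrays of 1 culture, so the errors given here may be technical only.

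Some facts about the whole series bear on every value below. Elavl1, the targeted gene, did not show a reduction on its 2 clones: one had z-scores of -0.20 and -0.21 with HuR siRNA against -0.12 and -0.20 with control siRNA, a difference of -0.045 (SE 0.048), and the other differed by 0.03 (SE 0.058). The name of the deposited file mentions NPM, whereas its columns and the sample labels name HuR, and the labels are followed here. The 4 arrays were alike over all clones whatever the siRNA, with Pearson's r of 0.983 between the HuR siRNA arrays, 0.982 between the control arrays and 0.980 to 0.985 across the groups. These are correlations across clones, which are not independent replicates. Of the 9 myoblast markers looked for, only nestin and vimentin were measured, and Myod1, Myf5 and Pax7 were not, so the labelled cell type could not be checked on its defining regulators. Vimentin, a filament protein of mesenchymal cells, had z-scores of 0.57 to 0.64 and did not part the groups. Nestin, a filament protein that myoblasts also express, had -0.37 and -0.27 with HuR siRNA and -0.65 and -0.44 with control siRNA. Like Anxa3 and Anxa1 it was thus above both control arrays, by a mean of 0.225 (SE 0.088, 95% interval -0.013 to 0.463), and its part in the annexin values was not tested. The 10 clones of the epithelial markers Cdh1, Epcam, Krt8 and Krt18 ranged in z-score from -1.42 to 2.31. This range mixes differences between genes with those between clones, and its source was not tested. Of the differentiated muscle markers only Mylpf was measured, at -0.85 to -0.63 (difference 0.125). Of the blood and endothelium markers Cdh5 and Pecam1 were measured, at -1.59 to 0.02 (differences -0.285 to -0.08). Brightness depends on the clone as well as on the RNA, so z-scores of different annexin genes are not ranked as expression levels.

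Anxa3, which encodes an annexin also described as an inhibitor of phospholipase A2, had the largest difference of the family. Its single clone (gene ID 11745, placed on chromosome 5 at 54.0 cM by the deposited table) had z-scores of 0.20 and 0.24 with HuR siRNA and of -0.27 and -0.07 with control siRNA. Both HuR siRNA arrays were thus above both control arrays, with 0.27 z units between the nearest values, and the control arrays differed more from each other than the HuR siRNA arrays did. The means were 0.22 ± 0.028 and -0.17 ± 0.141 (SD, n = 2 each). They lay 0.39 apart (SE 0.080, 95% interval 0.176 to 0.605). By size this was the 140th highest difference of the 16834 clones. Since this value led to the choice of the family, it supports nothing further.

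Anxa1, the glucocorticoid-induced annexin once called lipocortin 1, also lay higher on both arrays with HuR siRNA. Its clone (gene ID 16952, chromosome 19 at 18.0 cM) had z-scores of -0.37 and -0.19 with HuR siRNA and of -0.65 and -0.44 with control siRNA. The groups did not overlap, but only 0.07 z units parted them, and within each siRNA the array numbered 2 was the higher one. The means were -0.28 ± 0.127 and -0.545 ± 0.148 (SD, n = 2 each). Their difference of 0.265 (SE 0.102, 95% interval -0.009 to 0.539) had an interval that held 0, and the pooled SD of 0.138 was the highest among the annexin clones. Set against the array of the same number, HuR siRNA was higher by 0.28 for number 1 and by 0.25 for number 2, and for Anxa3 by 0.47 and 0.31, although nothing in the labels says that the numbers pair the arrays.

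Anxa2, which forms a heterotetramer with S100a10 and is a receptor for plasminogen and its activator at the cell surface, was the third clone without overlap. Its z-scores (gene ID 12306, chromosome 9 at 37.0 cM) were 0.54 and 0.48 with HuR siRNA and 0.46 and 0.45 with control siRNA. The nearest values were only 0.02 z units apart, and the difference of 0.055 (SE 0.044, 95% interval -0.065 to 0.175) was small beside that of Anxa3. This was also the annexin clone with the smallest spread, a pooled SD of 0.030.

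**Figure D1:**
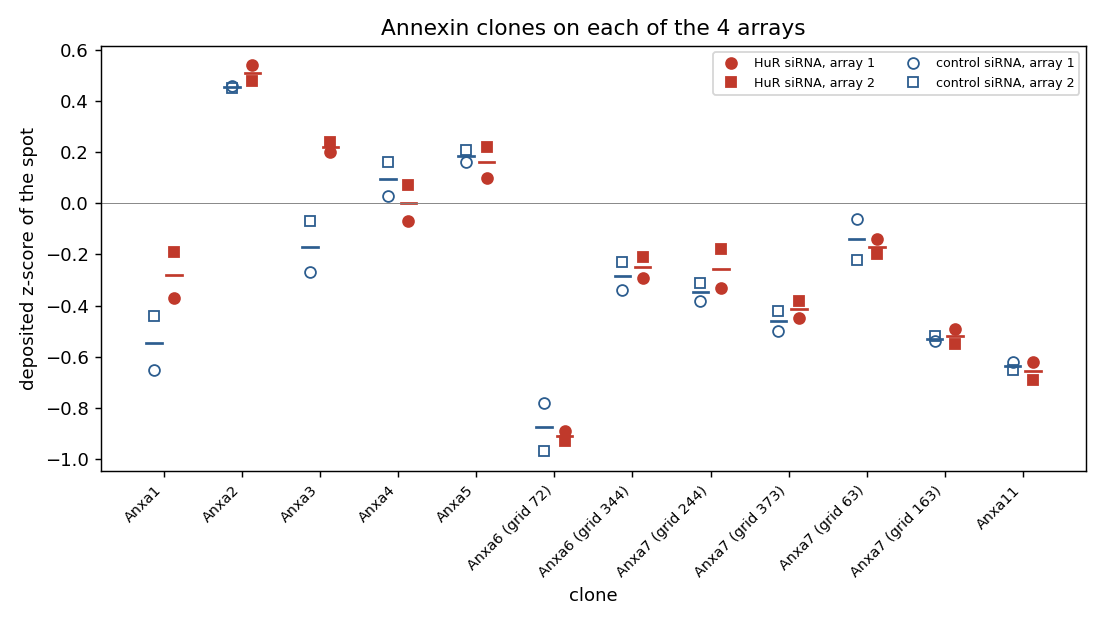
Deposited z-score (vertical axis, SD units of an array section) of each of the 12 annexin clones on each array, with filled red symbols for HuR siRNA, open blue symbols for control siRNA, symbol shape for array number and short bars for group means of 2 arrays. Anxa3 (0.20 and 0.24 against -0.27 and -0.07) and Anxa1 show the red symbols above the blue ones with a visible gap, Anxa2 with a gap of 0.02, and the other 9 clones overlap.

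The annexins with the most clones showed how far clones of 1 gene differ. Anxa7, or synexin, whose long N-terminal part binds the calcium sensors sorcin and ALG-2 (gene ID 11750, chromosome 14), was spotted as 4 clones, 2 in each array section. Their mean z-scores over the 4 arrays ran from -0.525 to -0.155, and all 4 overlapped between the groups. The clone in grid 244 had -0.33 and -0.18 with HuR siRNA and -0.38 and -0.31 with control siRNA, a difference of 0.09 (SE 0.069). The clones in grids 373 and 163 differed by 0.045 (SE 0.053) and 0.01 (SE 0.045), and the clone in grid 63 by -0.03 (SE 0.070). The 4 differences had a median of 0.0275, and the 95% interval of each held 0.

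Anxa6, the only family member with a doubled core of repeats (gene ID 11749, chromosome 11 at 29.5 cM), gave differences of opposite sign on its 2 clones. The clone in grid 344 had -0.29 and -0.21 with HuR siRNA and -0.34 and -0.23 with control siRNA, a difference of 0.035 (SE 0.061). The clone in grid 72 was dimmer, at -0.89 and -0.93 against -0.78 and -0.97, and differed by -0.035 (SE 0.077). On neither clone were the groups parted, and the brightness of the clones differed by far more than the siRNAs did.

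For the remaining annexins the arrays also overlapped, and their mean differences were below 0. Anxa4, an annexin of secretory epithelia (gene ID 11746, chromosome 6 at 38.0 cM), had -0.07 and 0.07 with HuR siRNA against 0.03 and 0.16 with control siRNA. Its difference of -0.095 (SE 0.076, 95% interval -0.299 to 0.109) was the lowest of the family, and it was negative for both array numbers (-0.10 and -0.09). Anxa5, the protein used as a probe for phosphatidylserine on dying cells (gene ID 11747, chromosome 3 at 19.2 cM), had 0.10 and 0.22 against 0.16 and 0.21, a difference of -0.025 (SE 0.059, 95% interval -0.184 to 0.134). Anxa11, which like Anxa7 binds ALG-2 through its N-terminal part (gene ID 11744, chromosome 14 at 3.3 cM), had -0.62 and -0.69 against -0.62 and -0.65, a difference of -0.02 (SE 0.047, 95% interval -0.147 to 0.107). Each of these intervals held 0, so no direction was resolved with 4 arrays. A further clone, described in the deposited table as annexin A9 but carrying the symbol and gene ID of another gene, was not counted as a member. It had -0.31 and -0.13 with HuR siRNA and -0.22 and -0.19 with control siRNA, so its groups overlapped as well.

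**Figure D2:**
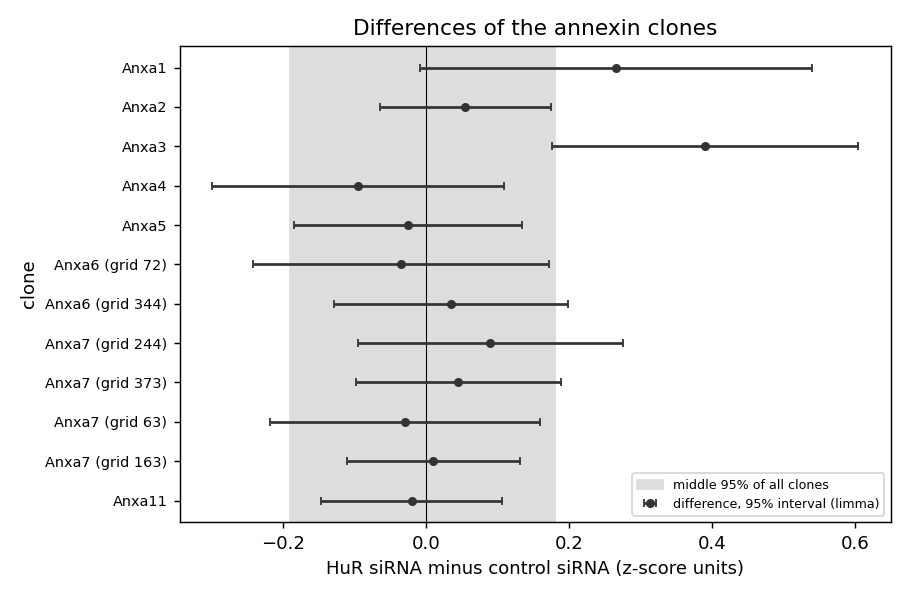
Difference between HuR siRNA and control siRNA (horizontal axis, z-score units) for each annexin clone, with the 95% interval of limma's fit on 2 arrays per group. The grey band holds the middle 95% of the differences of all 16834 clones, from -0.19 to 0.18, and the points of Anxa3 (0.39) and Anxa1 (0.265) lie outside it.

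Counted over the family, 7 of the 12 clones had a higher and 5 a lower mean with HuR siRNA, where 49.6% of all clones were higher and 46.9% lower. The median difference was 0.0225, against a median of 0 over all clones. Both HuR siRNA arrays lay above both control arrays for 3 annexin clones and below them for 0, where 13.9% of all clones were above and 13.7% below. With 1 array left out, groups of 2 and 1 arrays overlap less often, over the family as over all clones. The clones of Anxa1, Anxa2 and Anxa3, already parted, had to be counted as above in each of these settings, and Anxa3 chose the family. Without HuR siRNA replicate 1, 7 of the 12 annexin clones were above and 2 below, where 30.6% of all clones were above and 29.7% below. Without HuR siRNA replicate 2, 4 were above and 2 below, where 31% and 30.4% of all clones were. This setting thus left the annexin count above, Anxa3 included, close to the share of all clones. Without control siRNA replicate 1, 5 were above and 1 below, where 30.2% and 28.7% of all clones were, and without control siRNA replicate 2, 6 were above and 2 below, where 31.3% and 30.8% were. Without the Anxa3 clone, 2 of 11 clones (18.2%) were above, and the median difference was 0.01. At limma's threshold, a Benjamini-Hochberg adjusted p under 0.05 over all clones, 0 of the 11 clones of the other annexins passed, as did 0% of all clones. At an unadjusted p under 0.05 stood 3.95% of all clones, and 0 of these 11. The intervals of all 11 clones of the other annexins held 0. An exact permutation test of 2 arrays against 2 cannot give a p below 0.333, so no such test was made.

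**Figure D3:**
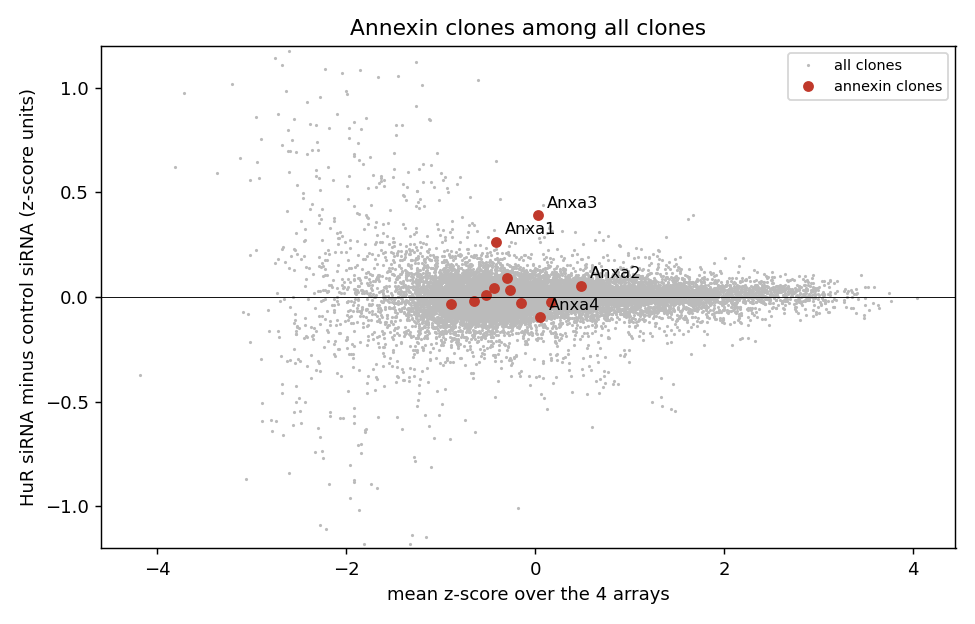
Difference between HuR siRNA and control siRNA (vertical axis, z-score units) against the mean z-score over the 4 arrays (horizontal axis), with all clones in grey and the 12 annexin clones in red. The annexin clones lie at mean z-scores of -0.8925 to 0.4825, most of them close to a difference of 0, with Anxa3 and Anxa1 above the others; 28 clones beyond the vertical range are not drawn.

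The surroundings of the parted clones on the array were also measured. In the grid that held Anxa3, the other 21 clones had a median difference of 0.015, and the 95 other clones of its source plate 0.025. For Anxa1 both medians were 0.045, and for Anxa2 they were -0.015 and -0.005. When the median of each grid was subtracted on each array, the difference of Anxa3 was 0.25, in place of 0.39. The array medians of its grid were thus on average higher with HuR siRNA, although the median of the single differences was 0.015. No annexin spot was at the most frequent value of its array section, a value that 471 spots of the table held on at least 1 array.

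Leaving out single arrays kept Anxa3 between 0.29 and 0.49. As the arrays of Anxa1, Anxa2 and Anxa3 were parted, their differences had to stay above 0 with any 1 array left out. Anxa1 lay at 0.16 without control siRNA replicate 1, at 0.175 without HuR siRNA replicate 2 and at 0.37 without control siRNA replicate 2. Over all settings tried, the difference of Anxa3 ran from 0.25 to 0.49, that of Anxa1 from 0.16 to 0.37 and that of Anxa2 from 0.025 to 0.0875. Some settings could not change these differences. The series value table was equal, and each of these genes had 1 clone, not at the most frequent value. The sign of Anxa4 also held, from -0.165 to -0.025, as did that of the Anxa7 clones in grids 244 and 373. The differences of Anxa5, Anxa11, both Anxa6 clones and the other two Anxa7 clones turned sign under at least 1 setting.

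**Figure D4:**
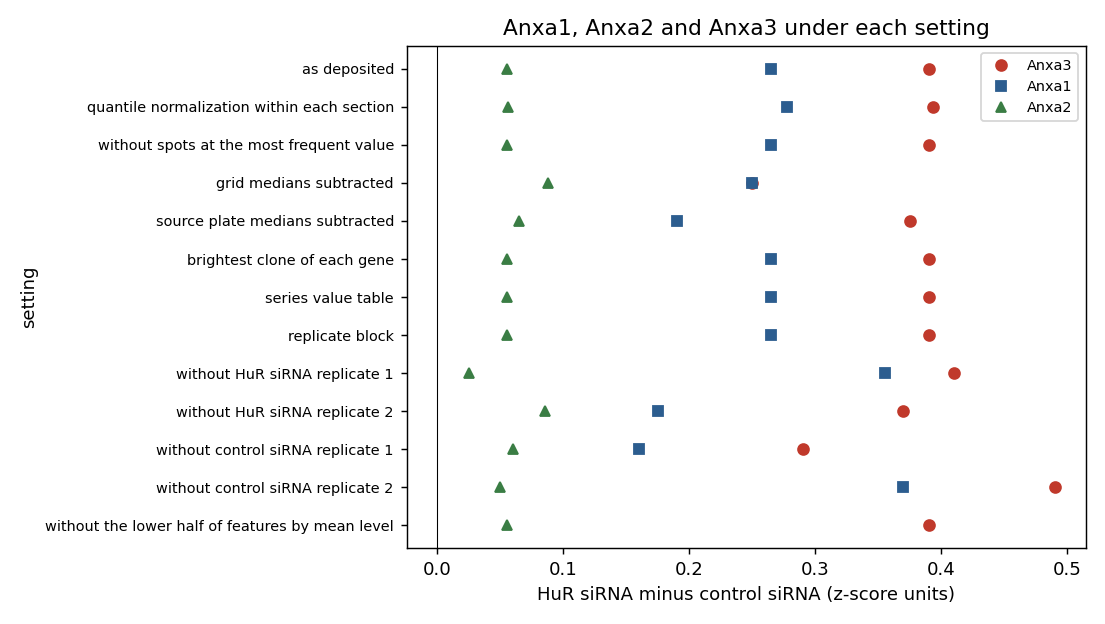
Difference between HuR siRNA and control siRNA (horizontal axis, z-score units) of Anxa3 (circles), Anxa1 (squares) and Anxa2 (triangles) under each setting (vertical axis), from the values as deposited to the arrays left out one at a time. Every symbol lies above 0 (the Anxa1 clone is not among the upper 50% of clones by mean level), and the lowest value of Anxa3 is the 0.25 with grid medians subtracted.

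The start regions of the annexin genes were read from RefSeq (GRCm38.p6), as a feature that the choice of the family did not use. RefSeq's table held windows for 6 of the 8 genes, 8 windows in all, and none for Anxa3 and Anxa6. Shown are the 250 bases before the start of Anxa1 (chr19:20390672-20390921, minus strand) and Anxa2 (chr9:69453433-69453682, plus strand), because these were the genes with a window whose arrays were parted. Capitals mark the TATA box (TATAAA), the GC box (GGGCGG), the CCAAT box and the AP-1 site (TGANTCA), each searched on both strands; in Anxa2 the third GC box and the TATA box are parted by 1 base.
Anxa1: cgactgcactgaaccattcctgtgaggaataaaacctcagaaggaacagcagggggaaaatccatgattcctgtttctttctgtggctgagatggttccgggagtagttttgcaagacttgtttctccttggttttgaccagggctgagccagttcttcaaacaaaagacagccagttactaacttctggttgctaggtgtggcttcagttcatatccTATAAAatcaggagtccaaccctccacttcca
Anxa2: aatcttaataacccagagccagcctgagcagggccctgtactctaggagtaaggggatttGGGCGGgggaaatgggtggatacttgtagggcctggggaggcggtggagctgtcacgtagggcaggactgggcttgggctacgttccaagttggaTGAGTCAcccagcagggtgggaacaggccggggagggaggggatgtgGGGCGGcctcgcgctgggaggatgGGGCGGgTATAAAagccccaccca

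The TATA box letters began 32 bases before the start of Anxa1 and 17 bases before that of Anxa2, and were in no other annexin window. They were in 12.4% of all 32851 windows of this length. The GC box was in 4 of the 8 annexin windows (Anxa2, Anxa11 and both of Anxa7, which overlap and share 1 match) and in 32.7% of all windows. The AP-1 letters were in the Anxa2 window alone and in 6.75% of all windows, while the CCAAT box was in 0 of the 8 and in 33.8%. A match is a run of letters and not a measured site, and the arrays do not bear on which of these sequences is used.

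A list of 30 genes of annexin partners and membrane repair was read from the same comparison, and 17 of them were measured on 22 clones. In this list 0 clones passed the threshold. An unadjusted limma p under 0.05 was found for 3 of the 22 clones, 2 higher and 1 lower, where 3.95% of all clones had one. Several genes had more than 1 clone, and the list was written with earlier results of these data known. Of the 22 clones, 14 had a higher and 8 a lower mean with HuR siRNA, and the median difference was 0.035. Both HuR siRNA arrays were above both control arrays for 9 of the 22 clones (40.9%) and below them for 4 (18.2%), where 13.9% and 13.7% of all clones were.

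Of the S100 proteins, small calcium sensors that bind annexin N-termini, only S100a6 was measured. It had z-scores of 0.96 and 1.09 with HuR siRNA and 1.12 and 1.25 with control siRNA, a difference of -0.16 (SE 0.074, limma adjusted p = 0.990), in the direction opposite to Anxa1, Anxa2 and Anxa3. Pdcd6 encodes ALG-2, the partner of Anxa7 and Anxa11. It had -0.51 and -0.61 against -0.40 and -0.50, a difference of -0.11 (SE 0.062, 95% interval -0.277 to 0.057, which held 0). The other 21 clones of its grid had a median difference of -0.08, and the 95 other clones of its source plate 0.01. Sri, which encodes sorcin, the partner of Anxa7, gave 0.05 (SE 0.062), 0.085 (SE 0.043) and -0.09 (SE 0.109) on its 3 clones. The 95% interval of each held 0, so no direction was resolved, and the clone with -0.09 was dim (mean z-score -1.95).

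In the repair machinery, the members of smallest unadjusted p were Cavin1, Capn2, Tsg101 and Smpd1. Cavin1, a coat protein of caveolae, had -0.72 and -0.67 with HuR siRNA and -0.53 on both control arrays, a difference of -0.165 (SE 0.043). Capn2, the large subunit of m-calpain, had -0.79 and -0.78 against -0.93 and -1.03, a difference of 0.195 (SE 0.052). Both parted the arrays, in opposite directions, and neither passed the threshold (limma adjusted p = 0.990 for each). Tsg101, an ESCRT subunit, differed by 0.225 (SE 0.076, 95% interval 0.0215 to 0.4285) on a dim clone (mean z-score -1.632). Smpd1, the acid sphingomyelinase, differed by 0.655 (SE 0.253, 95% interval -0.028 to 1.338), also on a dim clone (mean z-score -1.868). The control values of Smpd1, -2.54 and -1.85, were far apart, and its interval held 0. Dysf, which encodes dysferlin, the calcium-dependent membrane fusion protein of muscle repair, was higher on both HuR siRNA arrays on each of its 2 clones, by 0.115 (SE 0.064) and 0.07 (SE 0.052), with both intervals holding 0. Dysf was singled out after its values were seen.

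**Figure D5:**
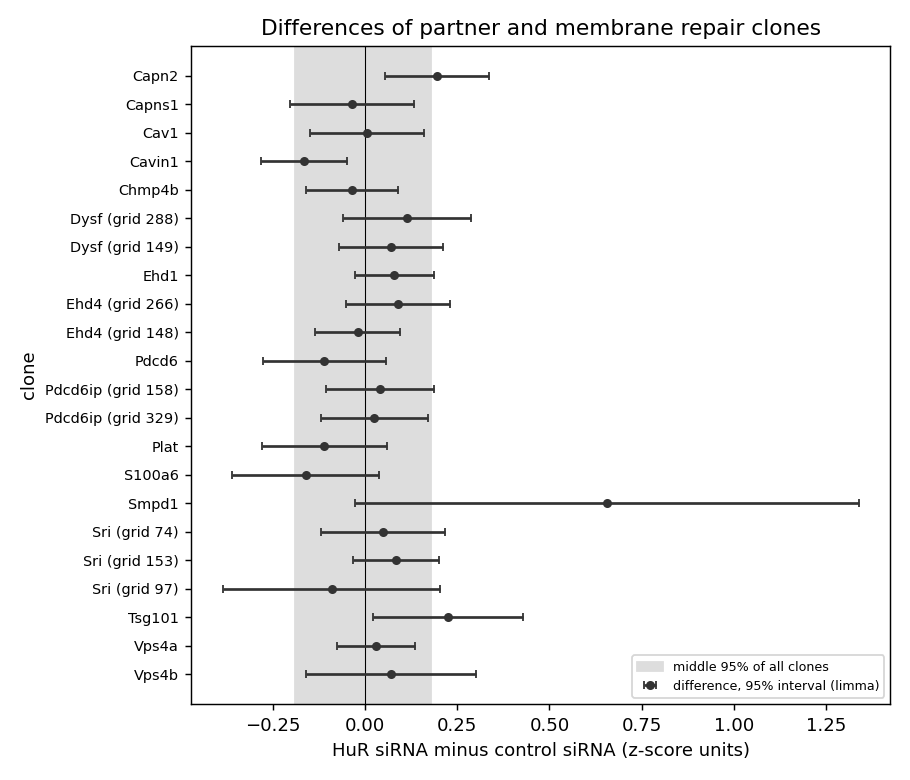
Difference between HuR siRNA and control siRNA (horizontal axis, z-score units) with limma's 95% interval for the 22 clones of annexin partners and membrane repair genes, over the same grey band of all clones as for the annexins. Most intervals (19 of 22) hold 0, and Smpd1 has the largest difference and the widest interval.

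The genes whose brightest clone was most like that of Anxa3 over the 4 arrays, by the root mean square difference of z-scores, were Ube3a, Mrps36 and Trpc2. Ube3a, a ubiquitin ligase, lay at 0.070 from Anxa3, with 0.16 and 0.21 with HuR siRNA and -0.14 and -0.05 with control siRNA. Mrps36 lay at 0.133 and Trpc2, a channel of the TRP family, at 0.137. Their differences between the siRNAs were 0.16 and 0.13, smaller than the 0.39 of Anxa3. This distance counts the brightness of a clone as well as its difference between the siRNAs. With 4 arrays and 6726 genes, such closeness is a description of these arrays.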

How the data were processed

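The authors deposited z-scores, a score without a unit, which was read from the values: within each of 2 sections of 8448 spots every array had a mean of 0 and an SD of 1. The sources used here state neither the background correction nor the transformation. The series value table held equal values in all 67584 cells. Of 16896 spots, 52 were described as empty and 4 had no identifier. Spots of 1 clone were averaged, clones of 1 gene were kept apart, and 9497 clones were named with RefSeq's gene table. Values were used as deposited. The comparison used R 4.3.3 and limma 3.58.1 (two-sided moderated test by lmFit and eBayes without a block, with Benjamini-Hochberg adjustment over 16834 clones). The step was tested on simulated data with changes of 1 and 2 z units. Those changes are larger than any annexin difference here, so the simulation does not bear on differences of that size. The number of arrays limits precision: the median half-width of a 95% interval was 0.144 z units over all clones. The members, the gene list and the tests were chosen with earlier results of these data known. By rule the text names all members, Elavl1, and the S100 genes and calcium-dependent partners measured. The rule also names the 4 list genes of smallest unadjusted p and the 3 genes nearest to Anxa3. Dysf and the clone described as annexin A9 were added after their values were seen. Nestin, vimentin, Mylpf, Cdh5, Pecam1 and the epithelial genes come from the marker list. Deviations from the group means correlated at 0.101 between arrays of equal number, and 2 pairs are too few to call them paired.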

Additional observations from a re-analysis of the deposited data

How the results depend on the processing

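With all 4 arrays used, the count of clones past the threshold was 0 in every setting except quantile normalization within each section. There 1 clone, which was no annexin, passed (limma adjusted p = 0.0327), and the cause was not tested. The smallest limma adjusted p of any clone ran from 0.0327 to 0.937 over these settings. It need not belong to the same clone in each. At an unadjusted p under 0.05 stood 519 to 841 clones with 1 array left out, 665 as deposited and 962 with the replicate block. With the replicate block 0 clones passed, and the annexin and list calls did not change; the labels do not say whether equal numbers pair the arrays. The list of partners had 0 clones past the threshold in all settings. The median difference of the annexin clones ran from -0.025 to 0.035, with the value below 0 when the lower 50% of clones by mean level was left out (5 annexin clones remained), and from 0.0125 to 0.035 with 1 array left out. Annexin clones whose HuR siRNA arrays lay above the control arrays numbered 4 to 7 of 12 with 1 array left out, and those below 1 to 2. Of all clones 30.2% to 31.3% were above and 28.7% to 30.8% below in these settings. The parted clones of Anxa1, Anxa2 and Anxa3 are by construction in each of these annexin counts above. With grid medians subtracted 4 annexin clones were above and 0 below, and with source plate medians subtracted 4 were above and 1 below. Dim spots limit what the arrays can show, and leaving out an array assumes that the lone array varies like the other group.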
